A study of Mus musculus with 6 samples.

Results

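Mitosis and cytokinesis genes encode the proteins that carry a cell from the start of mitosis to the separation of its daughters. The 52 genes described here were listed by symbol, and all 52 were found among the 18444 gene identifiers of the per-library tables. Their role groups are mitotic entry with 6 genes, checkpoint and anaphase with 8, kinetochore and centromere with 7, spindle with 15, the chromosomal passenger complex with 4, midzone and cytokinesis with 7, and chromosomes and transcription of mitosis with 5.

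Mitosis begins when the kinase CDK1, bound to a B-type cyclin, becomes active, and it ends when the anaphase-promoting complex (APC/C) has securin and the cyclins degraded and a contractile ring divides the cell. Many of these genes are transcribed only late in the cell cycle, under B-MYB, FOXM1 and the MuvB complex, and are shut off in resting cells by the DREAM complex. Most cells of a healthy adult liver are at rest, and hepatocytes and other liver cells can re-enter the cycle after injury.

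The study examined JT003, a peptide agonist of both adiponectin receptors, in a diet model of steatohepatitis and a CCl4 model of liver fibrosis, using male C57BL/6J mice aged 6 to 8 weeks. In the diet model, SD mice ate chow, HFD mice ate a high-fat diet for 16 weeks, and HFD plus JT003 mice also received 500 ug/kg JT003 for 4 weeks. In the CCl4 model, Oil mice received corn oil, CCl4 mice received 20% CCl4 at 5 ml/kg every 3 days for 6 weeks, and CCl4 plus JT003 mice also received JT003 for 3 weeks. Groups held 6 mice, which fasted for 8 h before the livers were taken. The values used here come from 6 liver RNA libraries, 1 per group, that were deposited with a table of their own, and whether a library was made from 1 mouse or from a pool is not stated in the sources used here.

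Counts below are the authors' expected counts, which estimate the reads of each gene, rounded to whole numbers. They summed to 20184557 in SD, 19724517 in HFD, 19849140 in HFD plus JT003, 19409752 in Oil, 20156841 with CCl4 and 19374236 with CCl4 plus JT003. Levels are compared between genes only in FPKM, the authors' value scaled to transcript length and to the reads of the library. With 1 library per group there was no replicate check, and each test compared 2 libraries, not 2 conditions. A gene entered the test with 10 or more counts in either library. It was called higher or lower at an adjusted p-value under 0.001 and a change of at least 2-fold, which is 1 on the log2 scale. Parentheses after a log2 ratio hold its 95% Clopper-Pearson interval, which reflects counting error alone. Copies made by PCR cannot be told from separate molecules here, so the interval may be too narrow even for that error.

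Summed over the 52 genes, the counts were 1377 in SD, 1821 in HFD, 2078 in HFD plus JT003, 2026 in Oil, 19710 with CCl4 and 3327 with CCl4 plus JT003. In CPM, which scales counts to the library total, this was 68.2, 92.3, 105, 104, 978 and 172 in the same order. The CCl4 library stood apart from the other 5, and the CCl4 plus JT003 library was the nearest to it. The median FPKM of the genes was 0.135 in SD, 0.23 in HFD, 0.265 in HFD plus JT003, 0.19 in Oil, 4.88 with CCl4 and 0.475 with CCl4 plus JT003. In FPKM, 51 of the 52 genes were highest in the CCl4 library, and Pttg1, highest in Oil, was the exception. In bulk liver RNA, more or fewer dividing cells and more or less RNA per cell cannot be told apart.

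Outside the CCl4 library, a few genes made up most of the summed level. The 4 genes with the highest FPKM in Oil, a set chosen after the values were seen, were Pttg1, Spc24, Cks2 and Spc25. They held 82.7% of the summed FPKM of the 52 genes in SD, 74.7% in HFD, 74.7% in HFD plus JT003, 81.4% in Oil, 23.7% with CCl4 and 68.1% with CCl4 plus JT003. The other 48 genes summed to 9.82 FPKM in SD, 17.2 in HFD, 19.5 in HFD plus JT003, 16.3 in Oil, 372 with CCl4 and 37.7 with CCl4 plus JT003. A basal level carried by these 4 genes was thus present in every library, while the rest were scarce except in CCl4.

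**Figure D1:**
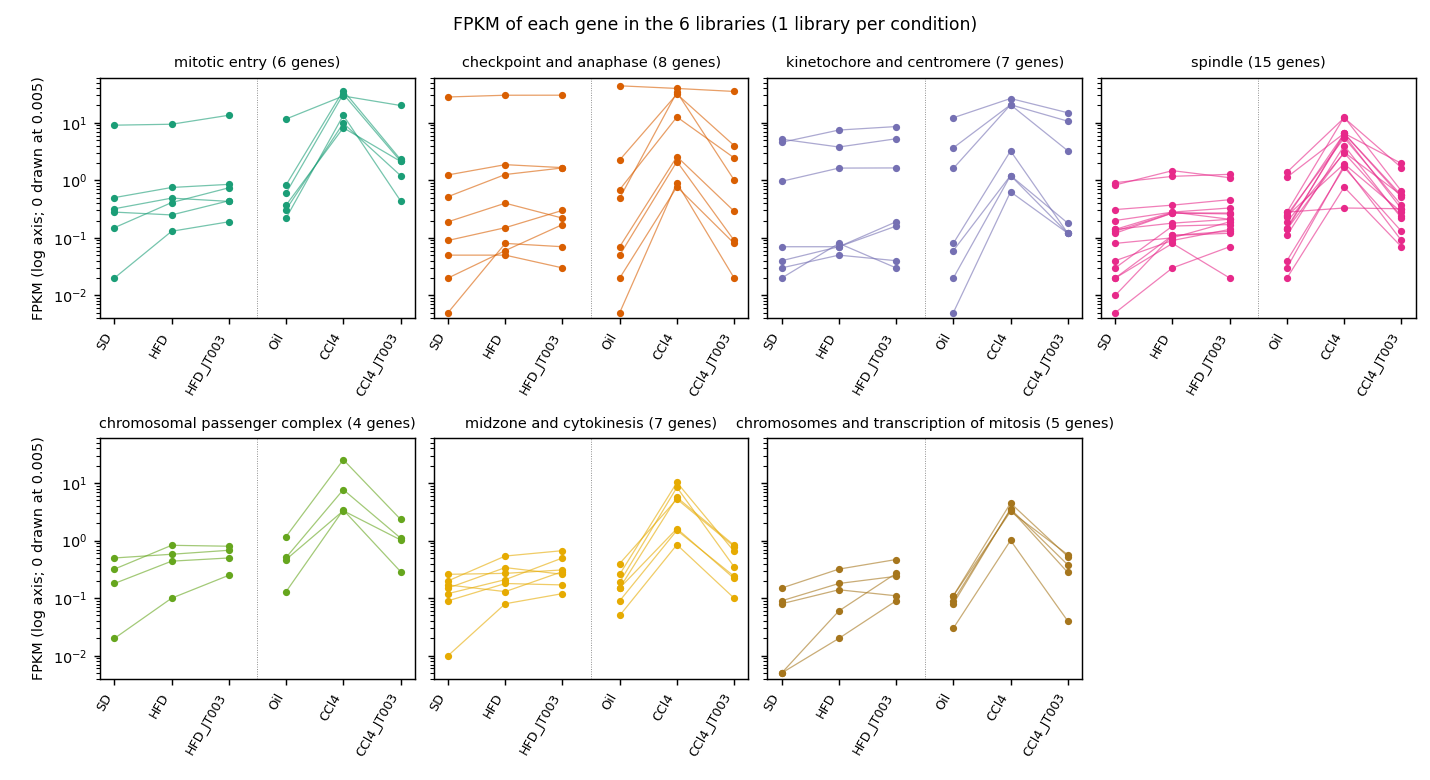
FPKM of each of the 52 genes (log axis, with 0 drawn at 0.005) in the 6 libraries, in 1 panel per role group, with each line joining the values of a gene within a model. The median over all genes is 4.88 FPKM in CCl4 and 0.19 in Oil.

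The comparison of CCl4 with Oil asks what the toxin changed. In it, 49 of the 52 genes were called higher and 0 lower, where 6.09% of the 13602 genes tested were called higher and 3.09% lower. The median log2 ratio of the 52 genes was 4.15, beside 0.01 for all genes tested, and it stayed 4.15 with the genes at 0 in Oil set to their lower bound. In size, 43 of the log2 ratios were at least 3. All 52 genes had at least 10 counts in CCl4 and 32 had as many in Oil, so the rest entered the test through the CCl4 library alone and could only be called higher. The genes not called were Pttg1, Spc24 and Kif15.

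The comparison of CCl4 plus JT003 with CCl4 asks what the agonist changed in the injured liver. Of the 52 genes, 48 were called lower and 0 higher, where 3.21% of the 13785 genes tested were called lower and 2.42% higher. The median log2 ratio was -3.07, beside -0.01 for all genes tested, and all 52 ratios were negative. Only 45 of the genes had at least 10 counts after JT003, so the other 7 entered the test through the CCl4 library alone and could only be called lower. Pttg1, Spc24, Kif15 and Cks2 were not called. The CCl4 library enters both comparisons, on opposite sides of the ratio, so a high value in that library alone gives a rise in the former and a fall in the latter.

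The comparison of CCl4 plus JT003 with Oil does not use the CCl4 library, although it shares a library with each of the others. In it, 9 genes were called higher and 0 lower, where 4.2% of the 13731 genes tested were called higher and 2.18% lower. A further 36 were not called and 7 had too few counts to be tested. Of the 45 genes tested, 32 had at least 10 counts in Oil. The rest, with Cenpe of the 9 called genes among them, entered through the treated library alone and could only be called higher. The median log2 ratio of the 52 genes was 0.77, beside 0.02 for all genes tested, and 46 of the ratios were above 0. Counts of the 52 genes together, scaled by TMM factors as in the log2 ratios and not by the library total alone as in CPM, were 7.97 times the Oil value in the CCl4 library and 1.33 times it after JT003. Pttg1, Spc24, Cks2 and Spc25, with 688, 319, 152 and 105 counts in Oil, weigh heavily in these sums. The other genes summed to 16.3 FPKM in Oil, 372 with CCl4 and 37.7 after JT003. The treated library thus lay much nearer to Oil than to CCl4 and above Oil for most of the genes.

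**Figure D2:**
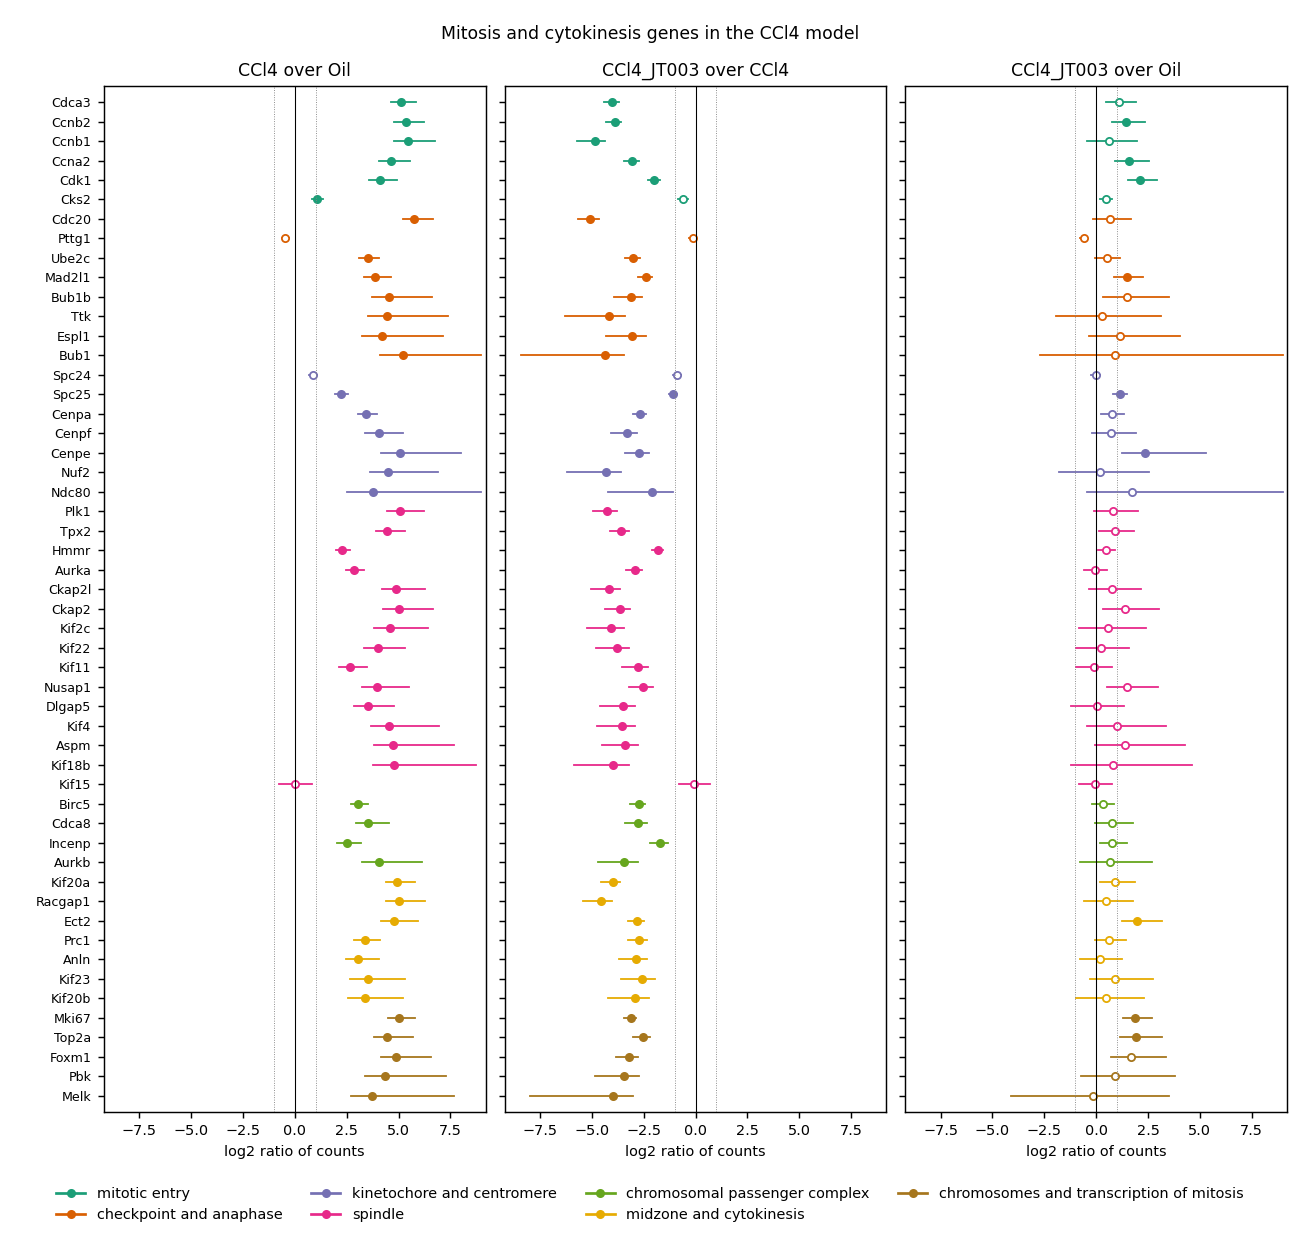
Log2 ratio of counts for each of the 52 genes in CCl4 over Oil, CCl4 plus JT003 over CCl4 and CCl4 plus JT003 over Oil, with 95% counting intervals as bars that are clipped at the panel edge where they have no upper end. Filled points are called, open points are not called or not tested, dotted lines mark 2-fold, and the medians are 4.15, -3.07 and 0.77.

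Of the 6 genes of mitotic entry, 6 were called higher in CCl4 over Oil, with a median log2 ratio of 4.87, and 5 fell and were called lower in CCl4 plus JT003 over CCl4, with a median of -3.47. Cdca3 (gene ID 14793), which promotes mitotic entry, had counts of 15 in SD, 22 in HFD, 25 in HFD plus JT003, 24 in Oil, 1086 with CCl4 and 66 with CCl4 plus JT003. Its log2 ratio was 5.11 (4.63 to 5.86) for CCl4 over Oil and -4.01 (-4.43 to -3.69) for CCl4 plus JT003 over CCl4. CCl4 was highest by far, and the treated library was above Oil by 1.10 (0.47 to 1.90), which was not called. Ccnb2 (gene ID 12442), a B-type cyclin, had counts of 10 in SD, 15 in HFD, 13 in HFD plus JT003, 18 in Oil, 976 with CCl4 and 64 with CCl4 plus JT003. The log2 ratios were 5.34 (4.80 to 6.23) and -3.90 (-4.33 to -3.58). The treated library remained above Oil, with a called log2 ratio of 1.44 (0.76 to 2.37). Ccnb1 (gene ID 268697), the main B-type cyclin partner of CDK1, had counts of 1 in SD, 6 in HFD, 9 in HFD plus JT003, 10 in Oil, 632 with CCl4 and 20 with CCl4 plus JT003. Its treated library fell to within counting error of Oil, at 0.61 (-0.46 to 1.96). Ccna2 (gene ID 12428), a cyclin of S phase and early mitosis, had counts of 9 in SD, 23 in HFD, 42 in HFD plus JT003, 17 in Oil, 563 with CCl4 and 67 with CCl4 plus JT003. Against CCl4 the treated library changed by -3.04 (-3.47 to -2.71), and against Oil by 1.58 (0.89 to 2.54), which was called.

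Cdk1, the kinase that drives entry, fell less than its cyclins with JT003, with a log2 ratio of -1.99 (-2.31 to -1.72) beside -4.86 for Ccnb1 and -3.90 for Ccnb2. It had counts of 16 in SD, 14 in HFD, 25 in HFD plus JT003, 21 in Oil, 476 with CCl4 and 119 with CCl4 plus JT003, and its ratio for CCl4 plus JT003 over Oil, 2.11 (1.53 to 2.95), was called. The intervals of Cdk1 and of both B-type cyclins for CCl4 plus JT003 over CCl4 did not overlap. Cks2, a small protein bound to CDK, was abundant in every library at 9.08 to 29.2 FPKM. It rose by 1.08 (0.82 to 1.37) with CCl4, and its change with JT003, -0.61 (-0.85 to -0.38), was under 2-fold.

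Of the 8 checkpoint and anaphase genes, 7 were called higher with CCl4, with a median log2 ratio of 4.32, and 7 lower with JT003, with a median of -3.07. Cdc20 (gene ID 107995), the activator of the APC/C, had counts of 7 in SD, 14 in HFD, 8 in HFD plus JT003, 17 in Oil, 1229 with CCl4 and 35 with CCl4 plus JT003. Its log2 ratio of 5.74 (5.20 to 6.67) for CCl4 over Oil was the largest of the 52, and -5.07 (-5.67 to -4.66) for CCl4 plus JT003 over CCl4 was the most negative. Both ranks rest on the prior count of 2 that was added to each library, since Bub1 and Ndc80 had 0 counts in Oil and Bub1 had 2 after JT003. The treated library did not differ from Oil beyond counting error, at 0.69 (-0.13 to 1.67). Ube2c (gene ID 68612), the ubiquitin-conjugating enzyme of the APC/C, had counts of 23 in SD, 34 in HFD, 30 in HFD plus JT003, 40 in Oil, 580 with CCl4 and 71 with CCl4 plus JT003. The log2 ratios were 3.51 (3.11 to 4.07) and -3.01 (-3.42 to -2.68). CCl4 was highest by far for this enzyme too. Mad2l1 (gene ID 56150), which holds back Cdc20 until chromosomes are attached, had counts of 18 in SD, 43 in HFD, 56 in HFD plus JT003, 23 in Oil, 438 with CCl4 and 82 with CCl4 plus JT003. It rose by 3.86 (3.36 to 4.64) with CCl4 and stayed above Oil after JT003, at 1.46 (0.85 to 2.27), which was called.

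Pttg1 (gene ID 30939), which encodes securin, the inhibitor of separase, went against the rest of its group. It had counts of 449 in SD, 478 in HFD, 471 in HFD plus JT003, 688 in Oil, 612 with CCl4 and 560 with CCl4 plus JT003, with Oil highest and SD lowest. The log2 ratio was -0.46 (-0.62 to -0.30) for CCl4 over Oil, an interval below 0, and -0.14 (-0.31 to 0.03) for CCl4 plus JT003 over CCl4. With 39.5 FPKM in CCl4 and 43.9 in Oil it was the most abundant of the 52 genes in both libraries. Espl1, which encodes separase itself, had counts of 0 in SD, 10 in HFD, 9 in HFD plus JT003, 3 in Oil, 105 with CCl4 and 11 with CCl4 plus JT003, with CCl4 highest. The checkpoint kinases Bub1, Bub1b and Ttk were low outside CCl4. Bub1 had counts of 4 in SD, 4 in HFD, 3 in HFD plus JT003, 0 in Oil, 80 with CCl4 and 2 with CCl4 plus JT003. The ratio of CCl4 to Oil, where it had none, was 21.8-fold with Oil set to a floor of 3 counts. With counting error in CCl4 included, the lower end of its log2 interval was 4.12. Bub1b had counts of 7 in SD, 11 in HFD, 22 in HFD plus JT003, 5 in Oil, 193 with CCl4 and 21 with CCl4 plus JT003. Ttk had counts of 1 in SD, 3 in HFD, 9 in HFD plus JT003, 3 in Oil, 125 with CCl4 and 5 with CCl4 plus JT003, and its log2 ratio for CCl4 over Oil was 4.44 (3.51 to 7.39). For Bub1 and Ttk the wide intervals come from libraries with 5 counts or fewer.

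Of the 7 kinetochore and centromere genes, 6 were called higher with CCl4, with a median log2 ratio of 3.78, and 6 lower with JT003, with a median of -2.66. The 4 subunits of the NDC80 complex, which binds microtubules, were unlike in level. Spc24 (gene ID 67629) had counts of 124 in SD, 198 in HFD, 229 in HFD plus JT003, 319 in Oil, 714 with CCl4 and 388 with CCl4 plus JT003. Spc25 (gene ID 66442) had counts of 153 in SD, 108 in HFD, 150 in HFD plus JT003, 105 in Oil, 601 with CCl4 and 285 with CCl4 plus JT003. Both were present in every library and highest in CCl4. Spc25 was called in both comparisons, with log2 ratios of 2.21 (1.93 to 2.54) with CCl4 and -1.08 (-1.30 to -0.88) with JT003. Spc24, at 0.87 (0.68 to 1.07) and -0.89 (-1.07 to -0.71), stayed under 2-fold and was not called in either. The remaining subunits were rare. Nuf2 had counts of 3 in SD, 3 in HFD, 8 in HFD plus JT003, 4 in Oil, 158 with CCl4 and 6 with CCl4 plus JT003. Ndc80 had counts of 2 in SD, 3 in HFD, 8 in HFD plus JT003, 0 in Oil, 28 with CCl4 and 5 with CCl4 plus JT003. CCl4 over Oil was 7.64-fold with Oil set to a floor of 3 counts, and the lower end of its log2 interval was 2.54. In FPKM the subunits stood at 26.4 for Spc24, 20.6 for Spc25, 3.24 for Nuf2 and 0.63 for Ndc80 in CCl4.

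Cenpa (gene ID 12615), the histone H3 variant of centromeres, had counts of 29 in SD, 45 in HFD, 47 in HFD plus JT003, 44 in Oil, 595 with CCl4 and 93 with CCl4 plus JT003. Its log2 ratios were 3.42 (3.03 to 3.95) with CCl4 and -2.66 (-3.02 to -2.37) with JT003. Cenpf (gene ID 108000), a protein of the outer kinetochore, had counts of 6 in SD, 11 in HFD, 9 in HFD plus JT003, 12 in Oil, 276 with CCl4 and 26 with CCl4 plus JT003, with log2 ratios of 4.04 (3.41 to 5.21) and -3.32 (-4.06 to -2.84). Both were highest in CCl4, and after JT003 Cenpa lay above Oil by 0.76 (0.25 to 1.33) without a call. Cenpe, a kinesin that moves chromosomes to the spindle equator, had counts of 3 in SD, 12 in HFD, 5 in HFD plus JT003, 3 in Oil, 193 with CCl4 and 28 with CCl4 plus JT003. Its treated library was above Oil by 2.36 (1.23 to 5.28), a call that rests on 3 counts in Oil.

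Of the 15 spindle genes, 14 were called higher with CCl4, with a median log2 ratio of 4.47, and 14 lower with JT003, with a median of -3.55. Plk1 (gene ID 18817), a kinase of centrosome maturation and spindle assembly, had counts of 6 in SD, 12 in HFD, 12 in HFD plus JT003, 12 in Oil, 564 with CCl4 and 28 with CCl4 plus JT003. Its log2 ratios were 5.07 (4.45 to 6.23) with CCl4 and -4.25 (-4.95 to -3.80) with JT003. The 5 libraries other than CCl4 had 28 counts or fewer. Aurka (gene ID 20878), the kinase Aurora A, had counts of 32 in SD, 55 in HFD, 42 in HFD plus JT003, 51 in Oil, 467 with CCl4 and 61 with CCl4 plus JT003, with log2 ratios of 2.86 (2.49 to 3.35) and -2.91 (-3.36 to -2.56). After JT003 it lay at the level of Oil, at -0.04 (-0.60 to 0.52). Tpx2 (gene ID 72119), which activates Aurora A on the spindle, had counts of 27 in SD, 31 in HFD, 38 in HFD plus JT003, 19 in Oil, 560 with CCl4 and 45 with CCl4 plus JT003, with log2 ratios of 4.47 (3.94 to 5.34) and -3.59 (-4.12 to -3.21). Hmmr (gene ID 15366), a spindle-associated protein, had counts of 73 in SD, 92 in HFD, 100 in HFD plus JT003, 87 in Oil, 523 with CCl4 and 150 with CCl4 plus JT003. Its change was smaller, with 2.28 (1.97 to 2.64) and -1.80 (-2.08 to -1.55).

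Kif15 (gene ID 209737), a kinesin that helps to keep spindle poles apart, did not change detectably between the single libraries of the CCl4 model. It had counts of 14 in SD, 18 in HFD, 20 in HFD plus JT003, 26 in Oil, 32 with CCl4 and 31 with CCl4 plus JT003, with the fewest in SD. The log2 ratio was 0.01 (-0.78 to 0.82) for CCl4 over Oil and -0.05 (-0.82 to 0.70) for CCl4 plus JT003 over CCl4, so a change of 2-fold in either direction lay outside both intervals. Kif11, the main kinesin that pushes the poles apart, had counts of 14 in SD, 27 in HFD, 32 in HFD plus JT003, 23 in Oil, 191 with CCl4 and 26 with CCl4 plus JT003 and rose by 2.67 (2.14 to 3.46) with CCl4. Kif18b, a kinesin that shortens astral microtubules, had counts of 0 in SD, 2 in HFD, 5 in HFD plus JT003, 2 in Oil, 124 with CCl4 and 6 with CCl4 plus JT003, with CCl4 highest. The remaining spindle genes, Kif22, Kif2c, Kif4, Nusap1, Aspm, Ckap2, Ckap2l and Dlgap5, were all called in both comparisons, with log2 ratios from 3.54 in Dlgap5 to 5.01 in Ckap2 with CCl4 and from -4.16 in Ckap2l to -2.52 in Nusap1 with JT003.

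Among these, the following had too few counts for a test in 1 or more comparisons of the diet model. Kif2c, a kinesin that takes microtubules apart at centromeres, had counts of 1 in SD, 6 in HFD, 7 in HFD plus JT003, 6 in Oil, 231 with CCl4 and 12 with CCl4 plus JT003. Ckap2, a spindle protein that stabilizes microtubules, had counts of 4 in SD, 5 in HFD, 10 in HFD plus JT003, 7 in Oil, 344 with CCl4 and 26 with CCl4 plus JT003. CCl4 was high and the 3 diet libraries were at 10 counts or fewer for both. Dlgap5, which stabilizes kinetochore fibers, had counts of 2 in SD, 6 in HFD, 9 in HFD plus JT003, 11 in Oil, 180 with CCl4 and 14 with CCl4 plus JT003. Aspm, a protein of the spindle poles, had counts of 5 in SD, 16 in HFD, 3 in HFD plus JT003, 3 in Oil, 153 with CCl4 and 13 with CCl4 plus JT003, and its log2 ratio for HFD plus JT003 over HFD, -1.86 (-4.86 to -0.63), was negative but not called.

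The 4 genes of the chromosomal passenger complex, which corrects faulty attachments and later acts at the midzone, were all called higher with CCl4, with a median log2 ratio of 3.31, and all called lower with JT003, with a median of -2.77. Birc5 (gene ID 11799), which encodes survivin, had counts of 22 in SD, 56 in HFD, 36 in HFD plus JT003, 51 in Oil, 537 with CCl4 and 79 with CCl4 plus JT003. Cdca8 (gene ID 52276), which encodes borealin, had counts of 6 in SD, 14 in HFD, 16 in HFD plus JT003, 16 in Oil, 252 with CCl4 and 35 with CCl4 plus JT003. CCl4 was highest for both. Incenp (gene ID 16319), the scaffold, had counts of 33 in SD, 37 in HFD, 44 in HFD plus JT003, 30 in Oil, 217 with CCl4 and 65 with CCl4 plus JT003. Aurkb (gene ID 20877), the kinase Aurora B, had counts of 1 in SD, 4 in HFD, 10 in HFD plus JT003, 5 in Oil, 137 with CCl4 and 11 with CCl4 plus JT003. The rise with CCl4 was smallest for Incenp. It was 2.50 (2.01 to 3.17), beside 3.06 (2.69 to 3.55) for Birc5, 3.55 (2.96 to 4.52) for Cdca8 and 4.07 (3.23 to 6.13) for Aurkb. From FPKM plus 0.1, Birc5 stood at 4.32 and Aurkb at 3.94, so the order of these 2 depended on the scale. In FPKM in CCl4 the subunits differed, with 25.5 for Birc5, 7.70 for Cdca8, 3.42 for Aurkb and 3.31 for Incenp.

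The 7 midzone and cytokinesis genes were all called in both comparisons, with medians of 3.51 with CCl4 and -2.87 with JT003. Kif20a (gene ID 19348), a kinesin of the midzone, had counts of 19 in SD, 19 in HFD, 22 in HFD plus JT003, 18 in Oil, 728 with CCl4 and 44 with CCl4 plus JT003, with log2 ratios of 4.92 (4.38 to 5.81) and -4.00 (-4.53 to -3.62). Racgap1 (gene ID 26934), a subunit of centralspindlin, had counts of 9 in SD, 21 in HFD, 15 in HFD plus JT003, 11 in Oil, 510 with CCl4 and 20 with CCl4 plus JT003, with log2 ratios of 5.03 (4.39 to 6.26) and -4.55 (-5.41 to -4.04). Both were highest in CCl4. After JT003 Racgap1 did not differ from Oil beyond counting error, at 0.50 (-0.57 to 1.77), and Kif20a lay above it by 0.92 (0.17 to 1.87) without a call. Ect2 (gene ID 13605), which activates RhoA at the cleavage furrow, had counts of 10 in SD, 17 in HFD, 40 in HFD plus JT003, 12 in Oil, 466 with CCl4 and 65 with CCl4 plus JT003. After JT003 its log2 ratio over Oil, 1.99 (1.24 to 3.16), was called. Prc1 (gene ID 233406), which bundles microtubules of the midzone, had counts of 12 in SD, 32 in HFD, 40 in HFD plus JT003, 24 in Oil, 323 with CCl4 and 47 with CCl4 plus JT003, with log2 ratios of 3.37 (2.86 to 4.13) and -2.74 (-3.27 to -2.35). Anln, which links actin to the contractile ring, had 3.07 and -2.87, Kif23, the kinesin of centralspindlin, had 3.51 and -2.59, and Kif20b had 3.38 and -2.94. Kif20b, a kinesin of late cytokinesis, was scarce, with counts of 1 in SD, 9 in HFD, 13 in HFD plus JT003, 6 in Oil, 97 with CCl4 and 11 with CCl4 plus JT003.

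The 5 genes of chromosomes and transcription of mitosis were all called in both comparisons, with medians of 4.46 with CCl4 and -3.21 with JT003. Mki67 (gene ID 17345), which coats mitotic chromosomes and is a common marker of cycling cells, had counts of 18 in SD, 36 in HFD, 48 in HFD plus JT003, 22 in Oil, 929 with CCl4 and 105 with CCl4 plus JT003. Top2a (gene ID 21973), the topoisomerase that untangles sister chromatids, had counts of 16 in SD, 33 in HFD, 49 in HFD plus JT003, 11 in Oil, 343 with CCl4 and 58 with CCl4 plus JT003. After JT003 both stayed above Oil, with called log2 ratios of 1.87 (1.28 to 2.69) and 1.94 (1.16 to 3.18). Foxm1 (gene ID 14235), a transcription factor of late cell-cycle genes, had counts of 7 in SD, 12 in HFD, 10 in HFD plus JT003, 7 in Oil, 319 with CCl4 and 33 with CCl4 plus JT003, with log2 ratios of 4.90 (4.16 to 6.55) and -3.21 (-3.85 to -2.76). Pbk, a mitotic kinase, had counts of 0 in SD, 2 in HFD, 9 in HFD plus JT003, 3 in Oil, 116 with CCl4 and 9 with CCl4 plus JT003. CCl4 was highest for both, and after JT003 Foxm1 lay above Oil by 1.70 (0.74 to 3.36), which was not called. Melk, another kinase, had counts of 0 in SD, 1 in HFD, 5 in HFD plus JT003, 2 in Oil, 60 with CCl4 and 2 with CCl4 plus JT003, and its ratio for CCl4 over Oil, 3.74 (2.70 to 7.70), has a wide interval because Oil held 2 counts.

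The 9 genes called higher in CCl4 plus JT003 over Oil came from several roles. They were Cdk1, Ccna2, Ccnb2, Mad2l1, Cenpe, Spc25, Ect2, Top2a and Mki67. The 7 genes too scarce to be tested there were Bub1, Ttk, Ndc80, Nuf2, Kif18b, Melk and Pbk, and 20 of the 52 intervals lay above 0 and 1 below. No spindle gene and no gene of the chromosomal passenger complex was called. With 1 library per group, whether the roles differ in this respect was not tested.

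In the diet model the question is the same for the high-fat diet and for JT003. Its 3 comparisons share libraries in the same way. For HFD over SD, 0 of the 52 genes were called, where 3.76% of the 13335 genes tested were called higher and 3.16% lower, and 13 had too few counts. The median log2 ratio was 0.68, beside 0.00 for all genes tested, with 44 ratios above 0, but intervals were wide, and 14 lay above 0 and 1 below. Only Pttg1, Spc24, Cks2 and Spc25 had at least 100 reads in either library, and over them the median was -0.034. For HFD plus JT003 over HFD, 0 were called, where 0.981% of the 13453 genes tested were called higher and 1.13% lower, and 10 had too few counts. The median was 0.19, with 4 intervals above 0 and 2 below. Where an interval held both 0 and 1, a 2-fold change was not detectable at this depth.

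For HFD plus JT003 over SD, 4 of the 52 genes were called higher and 0 lower, where 4.06% of the 13402 genes tested were called higher and 3.54% lower, and 15 had too few counts. They were Ccna2 at 1.90 (1.05 to 3.33), Mad2l1 at 1.43 (0.74 to 2.38), Ect2 at 1.71 (0.86 to 3.05) and Top2a at 1.40 (0.66 to 2.41). The median log2 ratio of the 52 genes was 0.74. In each of the 4 called genes HFD lay between SD and HFD plus JT003. They were 4 of the 37 genes tested, and they rest on 9 to 18 counts in SD. Only 25 of the 37 had at least 10 counts in SD. The rest, with Ccna2 among them, entered through the HFD plus JT003 library alone and could only be called higher. Summed over the 52 genes and scaled by TMM factors, the counts of HFD were 1.24 times those of SD and those of HFD plus JT003 were 1.39 times those of SD. The change in CCl4 was of another size, at 7.97 times Oil.

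By a 2-fold change alone, with no test on reads, 49 of the 52 genes were higher in CCl4 over Oil, where 8.76% of all genes were higher and 4.91% lower. For CCl4 plus JT003 over CCl4, 48 of the 52 were lower, where 4.24% of the 13785 genes that entered were lower and 4.64% higher. For CCl4 plus JT003 over Oil, 16 of the 45 members that entered were higher, where 8% of the 13731 genes that entered were higher and 3.37% lower. The diet comparisons gave smaller counts. For HFD over SD, 9 of the 39 members that entered were higher, where 5.94% of the 13335 genes that entered were higher and 4.15% lower. For HFD plus JT003 over HFD, 1 of the 42 members that entered was higher and 2 were lower. Of the 13453 genes that entered, 2.35% were higher and 2.36% lower, so these 42 members did not stand out. For HFD plus JT003 over SD, 12 of the 37 members that entered were higher, where 6.57% of the 13402 genes that entered were higher and 4.56% lower.

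Genes of the same pathway that are not among the 52 were followed in lists by function. Of 50 other mitosis genes, 43 were called higher and 0 lower with CCl4, and 36 lower with JT003. Among all genes tested, 6.09% were called higher and 3.09% lower with CCl4, and 3.21% lower with JT003. Of the 50, 29 had under 10 counts in Oil and 18 after JT003, so that many entered these 2 tests through the CCl4 library alone and could only be called in that direction. Their median log2 ratios were 2.90 and -2.03. Their 4 genes with the most counts were less uniform. Hjurp, the chaperone of Cenpa, had counts of 453 in SD, 914 in HFD, 1072 in HFD plus JT003, 617 in Oil, 940 with CCl4 and 818 with CCl4 plus JT003 and was not called in either comparison. Ccnf, a cyclin-like F-box protein, had counts of 598 in SD, 316 in HFD, 458 in HFD plus JT003, 486 in Oil, 719 with CCl4 and 288 with CCl4 plus JT003. Smc4, a condensin subunit, had counts of 128 in SD, 197 in HFD, 213 in HFD plus JT003, 202 in Oil, 618 with CCl4 and 411 with CCl4 plus JT003. Nek2, a centrosomal kinase, had counts of 136 in SD, 47 in HFD, 62 in HFD plus JT003, 84 in Oil, 981 with CCl4 and 122 with CCl4 plus JT003, with CCl4 highest.

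The core subunits and partners of the APC/C, on which Cdc20 and Ube2c act, changed by less than 2-fold with CCl4 and with JT003, apart from Ube2s. Of 17 genes, 1 was called higher with CCl4 and 1 lower with JT003, beside 6.09% and 3.21% of all genes tested. The medians were 0.18 and -0.43, beside 0.01 and -0.01 for all genes tested, and 12 of the 17 ratios with JT003 were below 0. The called gene was Ube2s, which extends ubiquitin chains for the APC/C, with counts of 430 in SD, 385 in HFD, 330 in HFD plus JT003, 452 in Oil, 1239 with CCl4 and 549 with CCl4 plus JT003 and log2 ratios of 1.16 and -1.18. Anapc5, the subunit with the most counts, had counts of 1523 in SD, 1139 in HFD, 1301 in HFD plus JT003, 1380 in Oil, 2258 with CCl4 and 1546 with CCl4 plus JT003. Anapc2 changed by 0.46 with CCl4 and Anapc1 by 0.61. Of 20 genes of the MuvB complex, DREAM and E2F factors, 5 were called higher with CCl4, with a median of 0.07, and 2 lower with JT003, with a median of -0.19. The most counted of them, Rbbp4, Rbl2, Tfdp1 and E2f4, changed by 0.11, -0.28, 0.29 and 0.19 with CCl4. The 5 called higher were Mybl1, Rbl1, Lin9, E2f2 and E2f1, at 3.46, 1.71, 1.63, 1.29 and 1.09.

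Of 12 inhibitors of CDKs and brakes on entry, 10 were tested in each of these comparisons. With CCl4, 4 were called higher, beside 6.09% of all genes tested. With JT003 there was 1 called higher and 2 called lower, beside 2.42% and 3.21% of all genes tested. Cdkn1a, which encodes the CDK inhibitor p21, had counts of 828 in SD, 295 in HFD, 94 in HFD plus JT003, 1050 in Oil, 3208 with CCl4 and 783 with CCl4 plus JT003. It was highest in CCl4, like the mitosis genes, and lowest in HFD plus JT003, unlike them. Its log2 ratios were 1.32 (1.22 to 1.42) with CCl4, -2.04 (-2.16 to -1.93) for JT003 in the CCl4 model and -1.65 (-2.02 to -1.33) for JT003 in the diet model. Wee1, the kinase that holds CDK1 inactive, had counts of 68 in SD, 235 in HFD, 594 in HFD plus JT003, 51 in Oil, 108 with CCl4 and 317 with CCl4 plus JT003. It was highest in the JT003 library of each model, and its log2 ratios with JT003 were 1.53 (1.22 to 1.87) in the CCl4 model and 1.31 (1.09 to 1.54) in the diet model. Ccng1, Btg2 and Cdkn1b, the others with the most counts, were not called in the CCl4 model.

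Genes of the earlier cell-cycle phases moved less than the mitosis genes. Over all genes tested, 6.09% were called higher and 3.09% lower with CCl4, and 2.42% higher and 3.21% lower with JT003. Of 25 replication genes, 23 of them tested, 10 were called higher and 1 lower with CCl4, with a median of 1.04, and with JT003 7 were called lower and 1 higher (median -0.69). The gene that went the other way was Mcm10, a replication initiation factor, with counts of 1938 in SD, 2502 in HFD, 1480 in HFD plus JT003, 1985 in Oil, 725 with CCl4 and 1763 with CCl4 plus JT003 and the lowest value in CCl4. Pcna and Mcm7, also among those with the most counts, changed by 0.24 and 0.50 with CCl4. Of 8 G1 cyclins and kinases, 1 was called higher with CCl4 and 0 were called with JT003, with medians of 0.38 and -0.06. This was Ccnd1, cyclin D1, with counts of 963 in SD, 1093 in HFD, 1006 in HFD plus JT003, 300 in Oil, 3866 with CCl4 and 2448 with CCl4 plus JT003. It rose by 3.39 (3.23 to 3.57) and, with -0.67 (-0.74 to -0.60) after JT003, stayed high where the mitosis genes fell. Ccnd3, Cdk4 and Cdk6 changed by -0.76, -0.13 and 0.52 with CCl4. Whether these lists differ from the 52 genes was not tested.

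Marker genes of liver and blood cells were read beside these results, as summed FPKM in SD, HFD, HFD plus JT003, Oil, CCl4 and CCl4 plus JT003, and their part in the results was not tested. For comparison with the calls below, 6.09% of all genes tested were called higher and 3.09% lower with CCl4. With JT003 in the CCl4 model the shares were 2.42% and 3.21%. Hepatocyte markers, led by Alb, were abundant in every library, as the labelled tissue requires, and 2 of 6, Cyp2e1 and Tat, were called lower with CCl4. Macrophage markers, led by Lyz2, summed to 101, 111, 144, 27.0, 86.8 and 130, and 5 of 6 were called higher with CCl4. The sum was higher after JT003 than in CCl4, mostly through Marco, which went from 4.01 to 32.45 FPKM and was the only one called, while Cd68 at -0.60 (-0.87 to -0.34) and Adgre1 at -0.35 (-0.67 to -0.03) had intervals below 0. Stellate cell and myofibroblast markers, led by Col1a1, summed to 9.58, 21.1, 12.6, 15.7, 38.4 and 19.6, and 1 of 6 was called higher with CCl4 and 3 lower with JT003. Most of the rise in this sum with CCl4 was Col1a1, from 1.97 to 20.41 FPKM, while Acta2 went the other way at -0.89 (-1.26 to -0.54), and with JT003 Lrat went against the sum at 0.84 (0.55 to 1.16). Bile duct markers, led by Spp1, summed to 16.1, 26.1, 16.7, 26.7, 104 and 106, and 4 of 5 were called higher with CCl4. Most of this sum was Spp1, at 90.5 FPKM in CCl4 and 95.1 after JT003. With JT003 the median log2 ratio of the 5 was -0.33, and Sox9 was called lower at -1.09 (-1.34 to -0.86).

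Endothelial markers, led by Kdr, summed to 29.5, 29.3, 34.9, 12.7, 8.56 and 13.4, with 1 of 4 called lower with CCl4. T cell markers, led by Cd4, summed to 1.65, 1.91, 2.45, 1.65, 0.65 and 1.42, with Cd3e at 0 counts in CCl4, and 0 of 5 were called. B cell markers, led by Cd79a, summed to 1.18, 1.15, 1.74, 1.53, 2.14 and 3.28, and 0 of 4 were called. Neutrophil and precursor markers, led by Ly6g, summed to 5.70, 10.99, 12.03, 7.05, 11.1 and 15.2, with Mpo and Elane at 1 count each in CCl4, and 0 of 5 were called with CCl4. Erythroid precursor markers, led by Alas2, summed to 52.02, 71.8, 50.8, 53.5, 50.6 and 48.8, with Rhag at 2 counts in CCl4, and 1 of 5 was called lower with CCl4. Red blood cell markers, led by Hba-a1, summed to 567, 276, 418, 664, 358 and 385, and 2 of 4 were called lower with CCl4. The gene called among the erythroid precursor markers was Klf1, which fell in CCl4.

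The authors' table for CCl4 and CCl4 plus JT003 holds a CCl4 column with the authors' pooled value of expected counts, without naming the libraries in it. That it includes the CCl4 library was inferred from the values, since its counts lay below that library in only 24 genes and by at most 0.99. What follows rests on this inference. After subtraction of the CCl4 library, 39781089 counts remained, 1.97 times the total of that library. In CPM, each column scaled to its own total, 51 of the 52 genes stood higher in this remainder than in either Oil or the JT003-treated library, with Pttg1 as the exception. On this inference the high level was also found outside the CCl4 library, and the median log2 ratio of the remainder over Oil, with TMM factors, was 3.82. The level was lower than in the library. The ratio of the CCl4 library to the remainder in CPM had a median of 1.38, beside 0.993 for all genes with at least 100 counts in CCl4. It was above 1 for 46 of the 52 genes, with 40 intervals above 1 and 2 below. With TMM factors the median was 1.43, beside 1.03, with 42 intervals above 1 and 1 below.

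The genes differed in this ratio. It was highest for Plk1 at 1.93 (1.72 to 2.17) and Cdc20 at 1.87 (1.73 to 2.03), and lowest for Kif15 at 0.549 (0.359 to 0.819), which had 115 counts in the remainder. Mki67, with the most counts of the 52 in the remainder, was at 0.924 (0.854 to 0.999), or 0.960 (0.887 to 1.04) with TMM factors, so whether its interval held 1 depended on the scaling. The median was 1.40 for mitotic entry, 1.40 for checkpoint and anaphase, 1.31 for kinetochore and centromere, 1.38 for spindle, 1.43 for the chromosomal passenger complex, 1.24 for midzone and cytokinesis and 1.10 for chromosomes and transcription of mitosis. The CCl4 library thus held relatively more of most mitosis genes than the rest of the pool, while Top2a, at 1.10 (0.960 to 1.26), was within counting error of it.

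**Figure D3:**
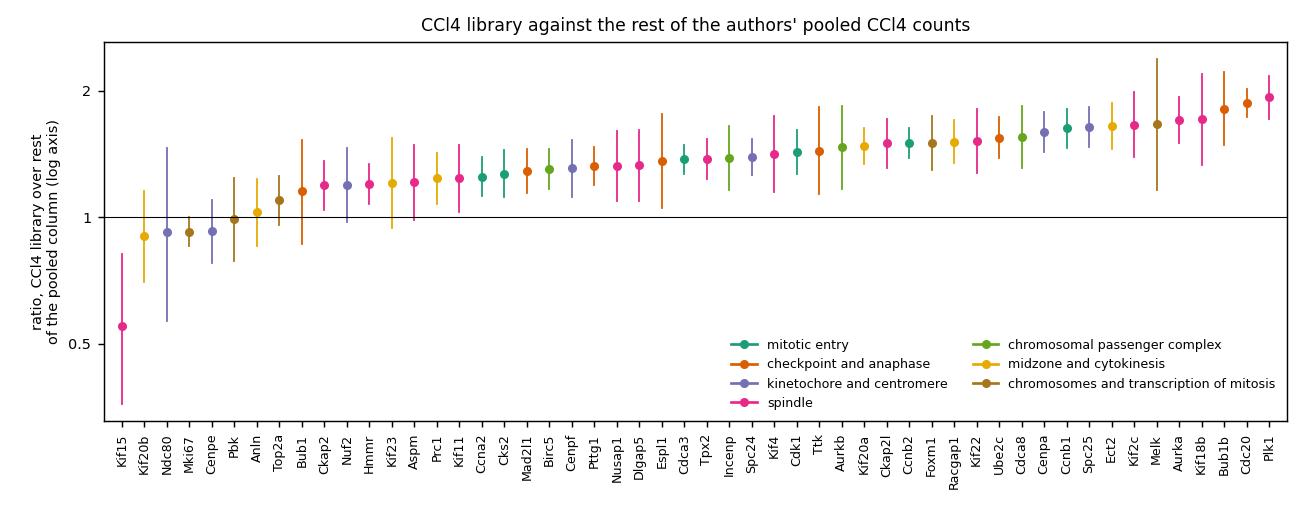
Ratio of CPM in the CCl4 library to the rest of the authors' pooled CCl4 counts, which are inferred to include that library, (log axis) for each of the 52 genes in order of the ratio, colored by role, with 95% counting intervals as bars. The line marks 1, the median ratio is 1.38, and Kif15 at 0.549 and Plk1 at 1.93 are the ends.

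Because most of the genes moved together, their promoters were searched for motifs, as a description. RefSeq promoters of build GRCm38.p6, from 250 bases before to 50 after the start of each gene, were available for 43 of the 52 genes, which had 45 promoters. The cell-cycle homology region (CHR), which the MuvB complex binds, was searched as TTTGAA or TTTAAA on both strands. It was found in 38 of the 45 promoters, or 84.4%, in 27.6% of all 32851 promoters and in 20.2% of the 14256 promoters of genes with 10 or more reads. CCAAT, the box bound by NF-Y, was found in 75.6%, 37.4% and 37.7% of these sets. The E2F motifs TTTGGCGC, TTTCCCGC, TTTCGCGC and TTTGCCGC were found in 4.44%, in Cdk1 and Kif15, beside 2.26% of all promoters and 3.71% of those of genes with 10 or more reads. Further shares were computed after the data were seen. TTTGAA alone was in 77.8%, 17.9% and 12.7% of the same sets, and a CHR together with CCAAT was in 71.1%, 10.7% and 7.80%. No CHR letters were in the window of Pttg1, Mad2l1, Cks2, Nusap1, Nuf2, Bub1 and Melk.

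The promoters below are those of the 4 genes with a CHR and the most counts in CCl4, shown so that the motif can be read in place. They lie at chr4:118437294-118437593 (minus strand) for Cdc20, chr6:124829926-124830225 (plus strand) for Cdca3, chr9:70421505-70421804 (minus strand) for Ccnb2 and chr7:135716330-135716629 (minus strand) for Mki67 in RefSeq build GRCm38.p6, written 5′ to 3′ in the direction of the gene. Capitals mark the CHR letters TTTGAA, which occur more than once in Ccnb2 and Mki67. A match describes the letters and does not show that a factor binds.
Cdc20: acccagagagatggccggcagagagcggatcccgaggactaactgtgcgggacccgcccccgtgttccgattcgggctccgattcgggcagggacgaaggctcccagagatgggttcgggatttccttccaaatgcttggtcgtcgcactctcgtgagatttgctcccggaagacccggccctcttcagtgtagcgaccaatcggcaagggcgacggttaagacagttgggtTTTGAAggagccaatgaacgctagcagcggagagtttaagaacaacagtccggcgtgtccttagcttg
Cdca3: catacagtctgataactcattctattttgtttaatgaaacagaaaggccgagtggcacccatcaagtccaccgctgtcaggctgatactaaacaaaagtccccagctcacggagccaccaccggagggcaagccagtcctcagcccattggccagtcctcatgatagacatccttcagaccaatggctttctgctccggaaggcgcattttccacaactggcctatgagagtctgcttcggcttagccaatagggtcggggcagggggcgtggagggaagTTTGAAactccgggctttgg
Ccnb2: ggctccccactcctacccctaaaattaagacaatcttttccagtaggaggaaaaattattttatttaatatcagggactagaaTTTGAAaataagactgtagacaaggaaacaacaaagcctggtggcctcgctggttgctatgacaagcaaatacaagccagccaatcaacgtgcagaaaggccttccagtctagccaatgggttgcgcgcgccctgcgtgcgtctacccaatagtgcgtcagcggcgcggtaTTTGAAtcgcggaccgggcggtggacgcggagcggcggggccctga
Mki67: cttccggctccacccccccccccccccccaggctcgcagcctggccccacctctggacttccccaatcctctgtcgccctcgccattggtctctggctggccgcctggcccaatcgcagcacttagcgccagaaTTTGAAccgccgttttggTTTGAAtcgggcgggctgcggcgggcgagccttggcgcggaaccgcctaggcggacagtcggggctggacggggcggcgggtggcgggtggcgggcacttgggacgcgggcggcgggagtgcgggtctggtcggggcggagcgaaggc

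Shared reads bear on some of these values. For 20 of the 52 genes the expected count was fractional in at least 1 library, and for 13 in all 6, as reads that fit several genes are split between them. The 13 include Pttg1, Spc24 and Kif15, the genes not called in CCl4 over Oil. They also include genes that were called, such as Birc5, Hmmr and Tpx2. The part of split reads in these values was not tested. In RefSeq, 17 of the 52 genes overlap another gene, such as Cdc20 with Elovl1, Aurka with Cstf1 and Ccna2 with Exosc9. The part of overlapping genes in the counts was not tested. Split reads and overlap were not looked at for the genes of the other lists, such as Mcm10.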

How the data were processed

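Liver RNA values were deposited for 6 single libraries, 1 per group. For every gene and library, the authors deposited 1 expected count and 1 FPKM value, and the submitters' processing notes name HISAT, Bowtie2, RSEM and the build mm9. The deposited table of CCl4 and CCl4 plus JT003 also holds the authors' pooled CCl4 column of expected counts. The fold changes, p-values and q-values in the authors' 4 comparison tables, and their 7 other per-sample expression columns, were not used.

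Expected counts were rounded. Library sizes were scaled by TMM factors over the 3 libraries of a model (edgeR 4.0.16, R 4.3.3), which were 0.941 in SD, 1.03 in HFD, 1.04 in HFD plus JT003, 0.884 in Oil, 1.04 in CCl4 and 1.09 after CCl4 with JT003. Log2 ratios used a prior count of 2. Genes with at least 10 counts in 1 of the 2 libraries entered an exact binomial test conditional on their summed counts, two-sided (scipy 1.17.1), and p-values were adjusted over all genes tested (Benjamini-Hochberg). Python 3.11.15, numpy 2.4.6, pandas 2.3.3 and matplotlib 3.10.9 were also used. The method was tested on simulated counts that held counting error alone, so that check does not cover spread between mice. A fold against a library at 0 used a floor of 3 counts.

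Members and lists were chosen with earlier results of these data known. Every-library values are given for the 4 genes of each role with the most counts in CCl4, those with the largest and smallest log2 ratios, those called in the diet model and those with few counts. In other lists, up to 4 of the genes with the most counts are named, and further genes were named after their values were seen. Any gene called against its list in CCl4 over Oil or in CCl4 plus JT003 over CCl4 is also named. Genes called against their list in the diet model, such as Ska2 among other mitosis genes, are not all named. Other settings tried were scaling by total reads or by DESeq2 1.42.0 size factors, no minimum or at least 100 counts, a prior count of 0.5, 2-fold alone, 4-fold with the test, the test alone, log2 of FPKM plus 1 or 0.1, the pooled column or its remainder, an edgeR exact test with an assumed coefficient of variation of 0.2 or 0.4 at an adjusted p-value under 0.05, and a promoter window from 150 bases before the start. The pooled column and its remainder were scaled to their totals, or by TMM factors with Oil and CCl4 plus JT003 for log2 ratios. The motif shares of TTTGAA alone and of a CHR with CCAAT, and the ratio of the CCl4 library to the remainder with TMM factors, were added after the data were seen.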

Additional observations from a re-analysis of the deposited data

Results flagged for a closer look

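With JT003, the summed counts of the 52 genes moved in opposite directions in the 2 models, with a log2 ratio of 0.17 in the diet model and -2.58 in the CCl4 model, and this difference was not tested. Pttg1, Spc24, Cks2 and Spc25 held much of these sums outside CCl4. The other genes went from 17.2 FPKM in HFD to 19.5 in HFD plus JT003, and from 372 with CCl4 to 37.7 with CCl4 plus JT003. In the authors' pooled CCl4 column, which is not a group in the main setting of any of the 6 comparisons and is inferred to include the CCl4 library, the counts left after subtraction of that library had a median log2 ratio of 3.82 over Oil for the 52 genes, so on this inference the signal was also present outside that library.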

How the results depend on the processing

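No paired analysis was possible because each group has 1 deposited library. The count of genes called in CCl4 over Oil, 49, was between 41 and 51 under every alternative. The 51 came from the test alone, with 50 higher and 1 lower, and in the other settings all called genes were higher. The median of 4.15 for CCl4 over Oil was 2.004 with log2 of FPKM plus 1. For CCl4 plus JT003 over CCl4, 48 genes were called lower, 39 to 50 under the alternatives other than the edgeR exact test with an assumed coefficient of variation of 0.4, which gave 17. Tests with an assumed coefficient of variation, here and below, also differ from the main setting in their thresholds, an adjusted p-value under 0.05 with no fold change required, so their counts do not show the effect of the assumed spread alone. Its median of -3.07 was -1.70 with log2 of FPKM plus 1.

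The smaller counts depended on the settings. For CCl4 plus JT003 over Oil, 9 genes were called. The count was 3 with at least 100 reads, 16 with 2-fold alone, 2 with 4-fold, 3 with FPKM plus 1, 17 with FPKM plus 0.1, and 5 and 0 with an assumed coefficient of variation of 0.2 and 0.4. For HFD over SD, 0 became 1 with total reads, 9 with 2-fold alone and 5 with FPKM plus 0.1. The median of 0.68 was -0.034 with at least 100 reads, where only Pttg1, Spc24, Cks2 and Spc25 remain. That setting changes the set of genes and cannot check the ratios of the others. For HFD plus JT003 over HFD, 0 became 3 with 2-fold alone, 1 higher and 2 lower, and 1 with FPKM plus 0.1. For HFD plus JT003 over SD, 4 became 0 with at least 100 reads, 12 with 2-fold alone, 0 with 4-fold, 0 with FPKM plus 1, 16 with FPKM plus 0.1, and 1 and 0 with an assumed coefficient of variation of 0.2 and 0.4. The 4 called genes had at most 56 counts in either library, so with at least 100 reads they could not be called.

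Scaling by total reads moved the all-gene median log2 ratio to 0.24 for CCl4 over Oil, 0.32 for CCl4 plus JT003 over Oil, 0.13 for HFD over SD and also 0.13 for HFD plus JT003 against SD, and the share of called genes that were higher went from 66.3% to 81.7%, 65.8% to 85.7%, 54.3% to 65.6% and 53.4% to 66.7%. For CCl4 plus JT003 over CCl4 the all-gene median went to 0.06 and the share from 43.0% to 50.9%, so calls turned from mostly lower to about even. Genes called among MuvB, DREAM and E2F factors were then 2 in place of 1 for CCl4 plus JT003 over Oil and 2 in place of 1 for HFD over SD, replication genes 4 in place of 2 for CCl4 plus JT003 over Oil, and other mitosis genes 8 in place of 5 for HFD plus JT003 over SD.

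In the shorter promoter window the share of all promoters was 17.6% for CHR, 28.6% for CCAAT, 1.66% for E2F, 11.2% for TTTGAA alone and 5.12% for a CHR with CCAAT. In the same order, the share of the 45 member promoters was 82.2%, 75.6%, 4.44%, 77.8% and 71.1%. For promoters of genes with 10 or more reads it was 11.7%, 29.8%, 2.73%, 7.30% and 3.67%. The 110 log2 ratios of members that were called were also followed singly with total reads, DESeq2 size factors, a prior count of 0.5 and FPKM plus 0.1. Of these 440 values, 439 kept their direction and their call, or a change of 2-fold for FPKM, and Spc25 for CCl4 plus JT003 over CCl4 was -0.94 with FPKM plus 0.1. Members that were not called were not followed singly, and the count of members called in CCl4 over Oil went from 49 to 50 with total reads. Causes were not tested. With 1 library per group no spread between mice can be estimated, and at 20 counts or fewer in a control library a change of 2-fold was often within counting error.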
